A study of Mus musculus with 4 samples.

Results

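The genes of glycolysis and a set of other hypoxia targets were followed through 4 cell populations of mouse mammary tumours. The set held 33 of the 55472 genes in the count tables: 19 for glucose uptake, the glycolytic steps, their regulation and lactate export, and 14 other targets of the hypoxia response. Members were matched by gene symbol, and Aldoa, whose symbol occurs more than once, by its identifier ENSMUSG00000030695. The tumours came from 3 female mice of the FVB background, aged 13 to 14 weeks. All of them carried MMTV-PyMT, a viral oncogene driven by a promoter active in mammary epithelium, together with K14Cre, driven by the human keratin 14 promoter, and a Rosa-tdTomato reporter. Tumour 1 was taken from multiple glands of mouse 1, tumour 2 from an inguinal gland of mouse 2, and mouse 3 gave tumour 3 (thoracic) and tumour 4 (inguinal). Cells were freed with Liberase, passed over a column that removes dead cells and captured in droplets, and transcripts were counted as unique molecular identifiers (UMIs). No mouse or gland differed in treatment or genotype, so cell populations, not conditions, were compared, with the 3 mice as replicates.

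Glycolysis splits glucose to pyruvate, and lactate dehydrogenase then turns pyruvate into lactate, which monocarboxylate transporters carry out of the cell. When oxygen is short, the hypoxia-inducible factors escape breakdown by the prolyl hydroxylases and raise most genes of this route along with genes for pH control, mitophagy, vessel growth and collagen folding. Tumour cells and activated macrophages are both known for high glycolytic flux with oxygen present, and hypoxia-inducible factors bind the core sequence ACGTG in the promoters they activate.

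Of the 33 members 31 matched a RefSeq promoter, and the unmatched ones were Bnip3l and Ndrg1. The 250 bases before each RefSeq transcription start (GRCm38.p6) were searched for ACGTG on both strands, where the reverse strand reads CACGT and a CACGTG counts on both. The motif was present for 18 of 31 members, which were 9 of 19 glycolytic genes and 9 of 12 other hypoxia targets. Counted by promoter, 20 of 42 member promoters (47.6%) held it, against 16.6% of all 32851 promoters. Glycolytic members with the motif were Slc2a1, Hk2, Pfkfb3, Aldoa, Pgk1, Pgam1, Pkm, Ldha and Slc16a3. No match was found for the glycolytic genes Hk1, Gpi1, Pfkl, Pfkp, Pfkfb4, Aldoc, Tpi1, Gapdh, Eno1 and Ldhb. The other targets without a match were Pdk1, Adm and Mif. A match describes the letters only and is no measure of binding. The windows of 4 genes are shown because their levels separate the populations below (Hk2, P4ha2 and Egln3) or follow the other hypoxia targets within the luminal cells (Pgk1). Each is printed 5′ to 3′ on the gene's own strand, and capitals mark the motif.
Hk2 (chr6:82774455-82774704, minus strand): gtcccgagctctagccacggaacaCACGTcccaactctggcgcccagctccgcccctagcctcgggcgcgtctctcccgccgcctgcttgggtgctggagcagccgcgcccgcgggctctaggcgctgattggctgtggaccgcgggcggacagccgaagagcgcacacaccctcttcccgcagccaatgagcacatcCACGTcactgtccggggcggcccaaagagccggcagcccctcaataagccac
P4ha2 (chr11:54100674-54100923, plus strand): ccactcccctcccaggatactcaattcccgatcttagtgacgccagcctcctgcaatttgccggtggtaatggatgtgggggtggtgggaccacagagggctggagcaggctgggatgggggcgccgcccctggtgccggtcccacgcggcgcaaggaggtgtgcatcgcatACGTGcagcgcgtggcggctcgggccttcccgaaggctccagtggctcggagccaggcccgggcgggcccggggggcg
Egln3 (chr12:54203875-54204124, minus strand): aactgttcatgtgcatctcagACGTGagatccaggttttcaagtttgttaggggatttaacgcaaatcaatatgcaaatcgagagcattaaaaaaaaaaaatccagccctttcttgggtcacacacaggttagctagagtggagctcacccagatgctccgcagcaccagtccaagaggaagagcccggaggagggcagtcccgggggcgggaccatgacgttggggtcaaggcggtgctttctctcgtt
Pgk1 (chrX:106186850-106187099, plus strand): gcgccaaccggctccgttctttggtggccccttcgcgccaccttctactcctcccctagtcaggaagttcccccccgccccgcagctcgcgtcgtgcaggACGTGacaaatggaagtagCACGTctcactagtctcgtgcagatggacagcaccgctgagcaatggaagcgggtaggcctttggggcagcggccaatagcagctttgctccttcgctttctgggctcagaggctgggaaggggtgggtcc
The Hk2 window held 2 matches, 226 and 52 bases before the start, and the Pgk1 window 2, at 150 and 131 bases. P4ha2 and Egln3 had 1 match each, at 78 and 229 bases. No exon of the GENCODE vM21 annotation overlapped any of the 4 windows; the P4ha2 window lies inside the annotated span of that gene (chr11:54100095-54131665). In the same annotation Aldoa spans chr7:126795234-126800751, Aldoc chr11:78322968-78327781, Slc16a3 chr11:120948480-120960868, P4ha1 chr10:59323296-59373304, Ankrd37 chr8:45996902-46005707 and Ndrg1 chr15:66929318-66969640.

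Levels are given as CPM, UMI counts per 1000000 UMIs of the cells summed in a gate and tumour, and listed for tumours 1 to 4. Cells were sorted into gates by raw UMIs. The fibroblast gate needed 10 UMIs of the collagen genes Col1a1 and Col3a1, the endothelial gate 2 UMIs of Cdh5 and Pecam1, and the macrophage gate 5 UMIs of the complement genes C1qa and C1qb. Of the remaining cells those with 3 UMIs of the keratins Krt8 and Krt18 formed the luminal gate. Of 36162 barcodes 1530 were fibroblast, 640 endothelial, 3046 macrophage and 21152 luminal, 9714 fell in no gate, and 80 that met more than 1 non-luminal gate were left out. The smallest unit was the endothelial gate of tumour 1, with 75 cells. The libraries held 20281799 to 39370565 UMIs, and 1250 barcodes occurred in more than 1 library. Markers not used for gating were high in their own gates: 7 fibroblast markers summed to 10343 to 11461 CPM in the fibroblast gate, 7 endothelial markers to 2369 to 3400 in the endothelial gate, 7 macrophage markers to 12480 to 18245 in the macrophage gate, and 7 luminal markers to 1581 to 1699 in the luminal gate, and none of these genes was at 0 in its own gate.

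RNA of other cells was measured in every gate. The 7 luminal markers reached 14.8 to 21.7% of their luminal level in the fibroblast gate of the 4 tumours, 27.5 to 46.9% in the endothelial gate and 24.3 to 35.0% in the macrophage gate. A member found at or below these percentages of its luminal level is therefore read as background in that gate and not as expression there. The fibroblast gate also held 347 to 811 CPM of 5 basal markers (Krt5, Krt14, Trp63, Acta2 and Mylk) and 50.2 to 163 of 4 mural markers. The basal sum is not split by gene, and how much of it came from other cells was not tested. The endothelial gate held 61.4 to 636 CPM of the macrophage markers and 18.2 to 1298 of 3 neutrophil markers, of which Csf3r was at 0. An alternative left out fibroblast-gate and endothelial-gate cells with UMIs of the macrophage, neutrophil or mural markers. No alternative left out fibroblast-gate cells by their basal markers. The part of this RNA in the results was not tested further. In such sums fewer expressing cells and less RNA per cell cannot be told apart. Means are given with the SD of the 3 mice, tumours 3 and 4 being summed. Fold changes are log2 values with their standard error (SE) from edgeR's quasi-likelihood test with the mouse as a block, and a gene was called at an adjusted p under 0.05 over all 10835 genes tested. All 33 members passed the count filter.

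Fibroblast-gate cells carried less glycolytic RNA than luminal cells but far more RNA of the collagen prolyl hydroxylases. Summed over the 19 glycolytic genes, the fibroblast gate held 2196, 3914, 2217 and 2606 CPM in tumours 1 to 4, against 3803, 8164, 4413 and 4563 in the luminal gate. Of 33 members 6 were higher and 20 lower in the fibroblast gate, where 50.0% of all genes tested were called, 24.3% higher and 25.7% lower. Of the glycolytic genes 2 were higher and 14 lower, and of the other hypoxia targets 4 were higher and 6 lower. The median log2 fold change was -0.84 over the glycolytic genes, -0.27 over the other targets and -0.08 over all genes.

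Among the enzymes Aldoc had the lowest fold change, with Pfkl, Ldhb and Aldoa after it. Aldoc, the aldolase best known from brain, stood at 16, 109, 21.4 and 34.9 CPM in the fibroblast gate, against 131, 601, 127 and 194 in the luminal gate (log2 fold change -2.68 ± 0.15, adjusted p = 3.46e-15). These fibroblast values were 12.2 to 18.1% of the luminal ones, at or below the luminal marker background in every tumour but tumour 3 (16.8 against 16%). With the fibroblast-gate cells that held 3 or more keratin UMIs left out, the log2 fold change was -3.74. Aldoa, the main aldolase isoform, had 347, 865, 349 and 397 CPM in the fibroblast gate, against 821, 2632, 855 and 841 in the luminal gate (-1.41 ± 0.11, adjusted p = 2.53e-11). It kept 32.9 to 47.2% of its luminal level, above the marker background. Pfkl, the liver-type phosphofructokinase, had 22.8, 43.5, 34.2 and 49.7 CPM in the fibroblast gate and 77.5, 156, 115 and 127 in the luminal gate (-1.72 ± 0.17, adjusted p = 6.6e-10). The Pfkl and Aldoc ranges of the gates did not overlap. Those of Aldoa did, since its fibroblast value in tumour 2 exceeded 3 of the luminal values. The lactate dehydrogenases were lower as well: Ldhb, whose enzyme favours the way back to pyruvate, had 50.2, 43.5, 76.0 and 45.3 CPM in the fibroblast gate against 117, 151, 184 and 174 in the luminal gate (-1.63 ± 0.18, adjusted p = 1.38e-07). The other glycolytic genes called lower were Eno1 (-1.14), Ldha (-1.11), Slc2a1, the glucose importer (-1.04), Hk1 (-1.0), Gpi1 (-0.84), Tpi1 (-0.74), Pgk1 (-0.54), Pkm (-0.47), Gapdh (-0.44) and, at the edge of the test, Pfkfb3 (-1.35, adjusted p = 0.0451). Pfkfb4, which sets the level of a phosphofructokinase activator, was higher (1.52), with only 1 and 2 UMIs in the fibroblast gate of tumours 1 and 2. Hk2, Pfkp and Pgam1 did not pass, at -0.07, -0.25 and 0.17.

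Export and collagen modification stood on the other side. P4ha1, a catalytic subunit of the enzyme that hydroxylates prolines in collagen, had 57.1, 61.2, 45.1 and 43.0 CPM in the fibroblast gate, against 6.43, 8.06, 4.90 and 6.46 in the luminal gate (2.92 ± 0.20, adjusted p = 2.99e-13). Its sister subunit P4ha2 had 43.4, 58.5, 16.2 and 42.3 CPM in the fibroblast gate, against 2.50, 1.21, 3.15 and 2.62 in the luminal gate (4.15 ± 0.35, adjusted p = 1.81e-09). Neither pair of ranges overlapped, and the lowest fibroblast value of P4ha2 was that of tumour 3. Adm, which encodes the vessel-dilating peptide adrenomedullin, had 22.8, 186, 36.6 and 34.1 CPM in the fibroblast gate against 7.24, 13.5, 7.89 and 10.3 in the luminal gate (2.68 ± 0.44, adjusted p = 0.00132). Tumour 2 stood far above the others for Adm, and without mouse 2 the log2 fold change was 1.82, still called. Slc16a3, the lactate exporter MCT4, had 4.57, 27.2, 3.80 and 10.4 CPM in the fibroblast gate against 0.625, 1.41, 1.24 and 0.515 in the luminal gate (3.43 ± 0.39, adjusted p = 2.01e-08). Its fibroblast value in tumour 1 rests on fewer than 3 UMIs (6.85 CPM). Without mouse 2 the Slc16a3 fold change was 2.82. Without mouse 2 the value of P4ha2 was 3.37, and without mouse 3 it was 4.89.

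Among the remaining other targets Ddit4, an inhibitor of the growth kinase complex mTORC1, was lower, with 4.57, 17.7, 27.6 and 28.9 CPM in the fibroblast gate against 43.4, 50.2, 80.2 and 64.7 in the luminal gate (-1.60 ± 0.20, adjusted p = 6.15e-08). The fibroblast value of Ddit4 in tumour 1 rests on fewer than 3 UMIs (6.85 CPM). At 10.5% of its luminal level it lay under the luminal markers of that tumour (14.8%), and in tumours 2 to 4 Ddit4 lay above them. Egln3, an oxygen-sensing prolyl hydroxylase, had 9.13, 9.52, 9.03 and 7.42 CPM in the fibroblast gate against 44.8, 48.4, 49.7 and 35.5 in the luminal gate (-2.39 ± 0.27). At 18.2 to 20.9% of its luminal level, Egln3 in the fibroblast gate was close to the luminal marker background. Its sister Egln1 was higher, at 11.4, 24.5, 16.6 and 13.4 CPM in the fibroblast gate against 7.41, 6.68, 7.27 and 8.0 in the luminal gate (1.15 ± 0.28, adjusted p = 0.000921). Car9, a carbonic anhydrase of the cell surface (-1.82), Mif, a cytokine (-0.82), Ankrd37 (-0.82) and Ndrg1 (-0.82) were lower, and Pdk1, Bnip3, Bnip3l and Hilpda did not pass. Without mouse 3, 7 calls against luminal cells were lost: Slc2a1 at -0.74, Pgk1 at -0.32, Pkm at -0.31, Ankrd37 at -0.56, Ndrg1 at -0.48, Pfkfb3 at -1.81 and Pfkfb4 at 0.63. Without mouse 1, Pfkfb3 (-1.18) and Ndrg1 (-0.70) lost theirs.

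**Figure D1:**
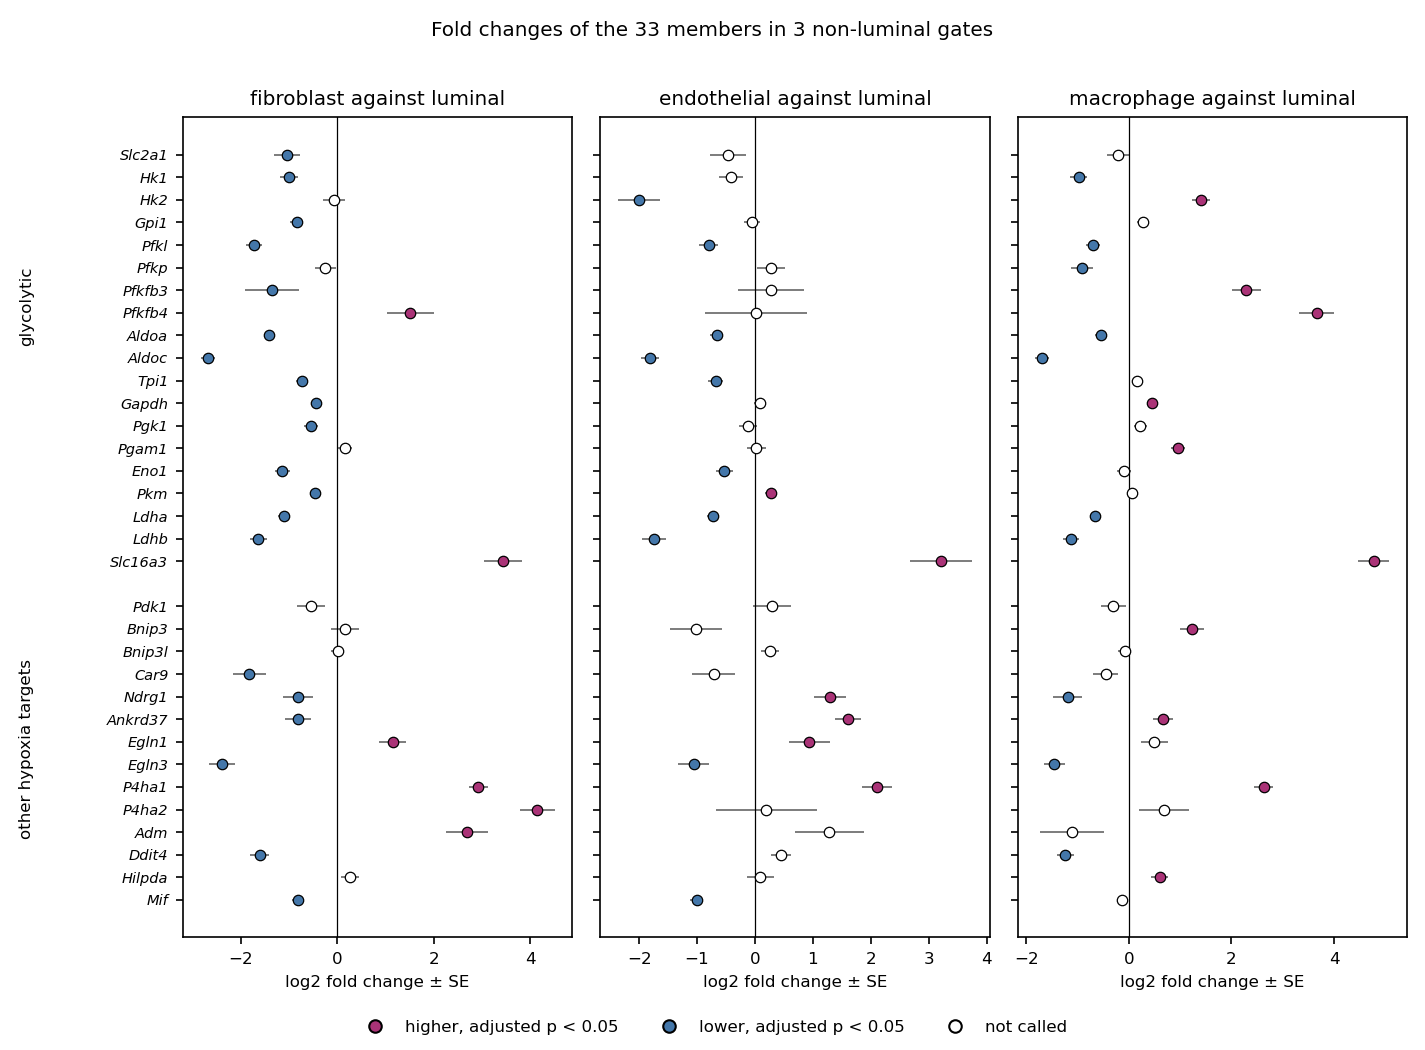
Log2 fold change of each of the 33 members in the fibroblast, endothelial and macrophage gates over the luminal gate, with SE bars. Filled points passed an adjusted p of 0.05 over 10835 genes: 6 higher and 20 lower in the fibroblast gate, 6 and 10 in the endothelial gate, 10 and 10 in the macrophage gate. The panels share the luminal cells and have different x scales.

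Endothelial-gate cells carried less RNA of 8 of the 19 glycolytic genes than luminal cells, with Hk2 no higher than the luminal marker background, and were high for Ankrd37 and Ndrg1. The 19 glycolytic genes summed to 3885, 5666, 4310 and 3934 CPM in the endothelial gate, against 3803, 8164, 4413 and 4563 in the luminal gate. Of 33 members 6 were higher and 10 lower, where 35.0% of all genes were called, 16.5% higher and 18.5% lower. Among the glycolytic genes 2 were higher and 8 lower, and among the other targets 4 were higher and 2 lower. The medians were -0.41 for the glycolytic genes, 0.27 for the other targets and -0.12 for all genes.

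Hk2, the hexokinase isoform induced in tumours, had 0, 10.4, 8.59 and 10.2 CPM in the endothelial gate and 24.7, 28.7, 31.9 and 34.8 in the luminal gate (-2.0 ± 0.36, adjusted p = 0.000124). Its highest endothelial value lay under the lowest luminal one; in tumour 1 a count of 0 allows up to 23.8 CPM. At 0, 36.3, 27.0 and 29.4% of its luminal level, against 28.4, 36.8, 27.5 and 46.9% for the luminal markers, Hk2 is read as background in the endothelial gate. With cells holding 3 or more keratin UMIs left out, the Hk2 value was -3.08. Aldoc had 47.7, 216, 40.1 and 69.9 CPM in the endothelial gate against a luminal mean of 298 ± 262 (-1.81 ± 0.15, adjusted p = 7.87e-11). It stood at 31.5 to 36.5% of its luminal level and reached -3.74 without the keratin-holding cells. Aldoc lay above the luminal markers in tumour 1 (36.5 against 28.4%) and tumour 3 (31.5 against 27.5%). In tumours 2 and 4 it lay below them. Ldhb had 39.7, 54.6, 73.0 and 58.0 CPM in the endothelial gate against a luminal mean of 149 ± 31.1 (-1.75 ± 0.21, adjusted p = 6.74e-07). At 33.3 to 39.7% of its luminal level, Ldhb too lay above the luminal markers in tumours 1 and 3 and below them in tumours 2 and 4. Pfkl had 31.8, 98.9, 90.2 and 81.9 CPM in the endothelial gate (-0.80 ± 0.17, adjusted p = 0.000417). Ldha, the lactate-forming subunit, had 651, 1095, 695 and 798 CPM in the endothelial gate, against 730, 2067, 771 and 998 in the luminal gate (-0.72 ± 0.11, adjusted p = 6.42e-06). Tpi1 (-0.68), Aldoa (-0.66) and Eno1 (-0.53) were also lower, the last not without mouse 1 (-0.43). Without the keratin-holding cells Aldoa was at -1.44, Ldha at -1.33 and Ldhb at -2.88.

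Slc16a3 was the glycolytic gene with the largest difference, at 7.94, 15.6, 11.5 and 5.12 CPM in the endothelial gate against a luminal mean of 0.960 ± 0.405 (3.21 ± 0.53, adjusted p = 1.75e-05). The endothelial value of tumour 1 rests on fewer than 3 UMIs (23.8 CPM) and that of tumour 4 on 3. Pkm, the pyruvate kinase gene, had 477, 663, 660 and 525 CPM in the endothelial gate against 281, 474, 468 and 448 in the luminal gate (0.27 ± 0.11, adjusted p = 0.0463). Each endothelial value of Pkm exceeded the luminal value of its tumour, but the call was lost when any mouse was left out, at 0.26 to 0.31. Gapdh, Gpi1, Hk1, Pfkp, Pfkfb3, Pfkfb4, Pgk1, Pgam1 and Slc2a1 did not pass, between -0.47 and 0.28.

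Ndrg1 and Ankrd37 marked the endothelial gate among the other targets. Ankrd37, an ankyrin repeat gene known for its induction in hypoxia, had 87.4, 65.0, 58.7 and 30.7 CPM in the endothelial gate, against 13.7, 21.6, 11.6 and 15.4 in the luminal gate (1.61 ± 0.23, adjusted p = 1.68e-06). Ndrg1, a stress-induced gene tied to growth arrest, had 87.4, 101, 91.6 and 126 CPM in the endothelial gate against 35.1, 37.0, 27.3 and 40.0 in the luminal gate (1.30 ± 0.28, adjusted p = 0.00293). The 4 endothelial values of each gene lay above all 4 luminal values. Without mouse 3, Ndrg1 lost its call at 1.04. P4ha1 had 15.9, 49.4, 30.1 and 25.6 CPM in the endothelial gate (2.10 ± 0.26, adjusted p = 1.92e-07). The values of tumours 2 to 4 lay above the luminal range, while that of tumour 1 rests on 2 UMIs, under the floor of 3, and without mouse 1 the fold change was 2.25. Egln1 was called higher (0.94) but not once any mouse was left out, at 0.90 to 1.06. Mif was lower, at 659, 822, 693 and 672 CPM in the endothelial gate against 1159, 1148, 1521 and 1205 in the luminal gate (-1.01 ± 0.12, adjusted p = 3.16e-07), and Egln3 was lower at -1.06, or -1.94 without mouse 3. Ddit4 had 95.3, 65.0, 112 and 131 CPM, above the luminal value in every tumour, and just missed the threshold (0.45 ± 0.18, adjusted p = 0.053). Pdk1, Bnip3, Bnip3l, Car9, P4ha2, Adm and Hilpda did not pass.

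Macrophage-gate cells carried more RNA of Hk2, Pgam1, Gapdh, both listed Pfkfb genes and Slc16a3 than luminal cells, and less of Hk1, Pfkl, Pfkp, both aldolases and both lactate dehydrogenases. Their 19 glycolytic genes summed to 3299, 5245, 3667 and 3919 CPM in the macrophage gate, against 3803, 8164, 4413 and 4563 in the luminal gate. Of 33 members 10 were higher and 10 lower, where 45.6% of all genes were called, 20.7% higher and 24.9% lower. Among glycolytic genes 6 were higher and 7 lower, and among other targets 4 and 3. The medians were 0.07, -0.10 and, over all genes, -0.11.

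Hk2, whose promoter window holds 2 motif matches, had 61.0, 62.7, 82.3 and 74.0 CPM in the macrophage gate, against 24.7, 28.7, 31.9 and 34.8 in the luminal gate (1.41 ± 0.17, adjusted p = 3.83e-07). Pgam1, the phosphoglycerate mutase, had 187, 199, 185 and 155 CPM in the macrophage gate against 90.7, 128, 123 and 93.9 in the luminal gate (0.96 ± 0.14, adjusted p = 3.11e-06). The macrophage values of both genes lay above every luminal value. Gapdh, the oxidising step of the pathway, had 707, 910, 865 and 923 CPM in the macrophage gate against 522, 877, 699 and 715 in the luminal gate (0.45 ± 0.10, adjusted p = 0.000579), higher within each tumour while the ranges overlapped. Slc16a3 had 21.2, 26.4, 22.2 and 20.2 CPM in the macrophage gate against a luminal mean of 0.960 ± 0.405 (4.77 ± 0.30, adjusted p = 6.92e-14). Pfkfb4 had 12.2, 14.8, 17.9 and 15.9 CPM in the macrophage gate against 0.715, 2.27, 1.18 and 0.983 in the luminal gate (3.66 ± 0.34, adjusted p = 4.14e-10), and Pfkfb3, whose product raises the same phosphofructokinase activator, 13.0, 15.4, 18.6 and 11.5 CPM in the macrophage gate against 2.86, 2.94, 3.27 and 5.10 in the luminal gate (2.29 ± 0.29, adjusted p = 1.35e-07). None of these 3 pairs of ranges overlapped. At least 1 Slc16a3 UMI was found in 5.15% of macrophage-gate cells, 2.42% of fibroblast-gate cells, 2.19% of endothelial-gate cells and 0.355% of luminal cells, although luminal cells were the deepest, with median UMIs of 2663.5 to 3700 against 1344 to 2560 in macrophages.

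On the low side Aldoc had 26.9, 210, 34.0 and 51.4 CPM in the macrophage gate (-1.69 ± 0.13, adjusted p = 3.6e-12), at 20.6 to 34.9% of its luminal level. Aldoc lay below the luminal markers of the same tumour except in tumour 3 (26.7 against 24.6%). Ldhb had 40.7, 41.8, 118 and 79.8 CPM in the macrophage gate (-1.13 ± 0.16, adjusted p = 5.25e-06), with tumour 3 at 64.1% of its luminal level and tumour 2 at 27.6%, under the marker background of that tumour (35.0%). Hk1, the constitutive hexokinase, had 13.0, 35.6, 24.3 and 29.8 CPM in the macrophage gate against 43.3, 62.9, 63.7 and 59.8 in the luminal gate (-0.98 ± 0.17, adjusted p = 1.84e-05). Pfkl had 57.0, 76.2, 56.5 and 62.0 CPM in the macrophage gate against a luminal mean of 118 ± 39.4 (-0.70 ± 0.14, adjusted p = 0.000144). The Hk1 ranges did not overlap, and every macrophage value of Pfkl lay under the lowest luminal one. Pfkp (-0.91), Ldha (-0.66) and Aldoa (-0.55) were lower too, and Slc2a1, Gpi1, Tpi1, Pgk1, Eno1 and Pkm did not pass, between -0.21 and 0.28. Without the keratin-holding cells Aldoc was at -2.73 and Hk1 at -1.67.

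Among the other targets P4ha1 was high in macrophages too, with 39.1, 34.4, 33.6 and 37.5 CPM in the macrophage gate (2.63 ± 0.18, adjusted p = 5.59e-13). Bnip3, which directs mitochondria to autophagy, had 39.1, 32.6, 26.8 and 26.9 CPM in the macrophage gate against 16.6, 14.6, 14.5 and 15.6 in the luminal gate (1.23 ± 0.23, adjusted p = 0.000167). Hilpda, an inhibitor of fat breakdown on lipid droplets, was higher at 0.60, and Ankrd37 at 0.66 (0.46 and not called without mouse 3). Ddit4 had 16.3, 18.4, 29.0 and 26.4 CPM in the macrophage gate against 43.4, 50.2, 80.2 and 64.7 in the luminal gate (-1.24 ± 0.17, adjusted p = 5.42e-07). Every macrophage value of Ddit4 lay under the luminal range, and that of Bnip3 above it. Ndrg1 (-1.19) and Egln3 (-1.45) were lower. In tumour 1 Ndrg1 stood at 11.6% of its luminal level, under the luminal markers (24.3%), and in tumours 2 to 4 it lay above them. Egln3 stood at 23.8 to 41.9% of its luminal level, below the luminal markers in tumour 3 alone (23.8 against 24.6%). Pdk1, Bnip3l, Car9, Egln1, P4ha2, Adm and Mif did not pass.

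**Figure D2:**
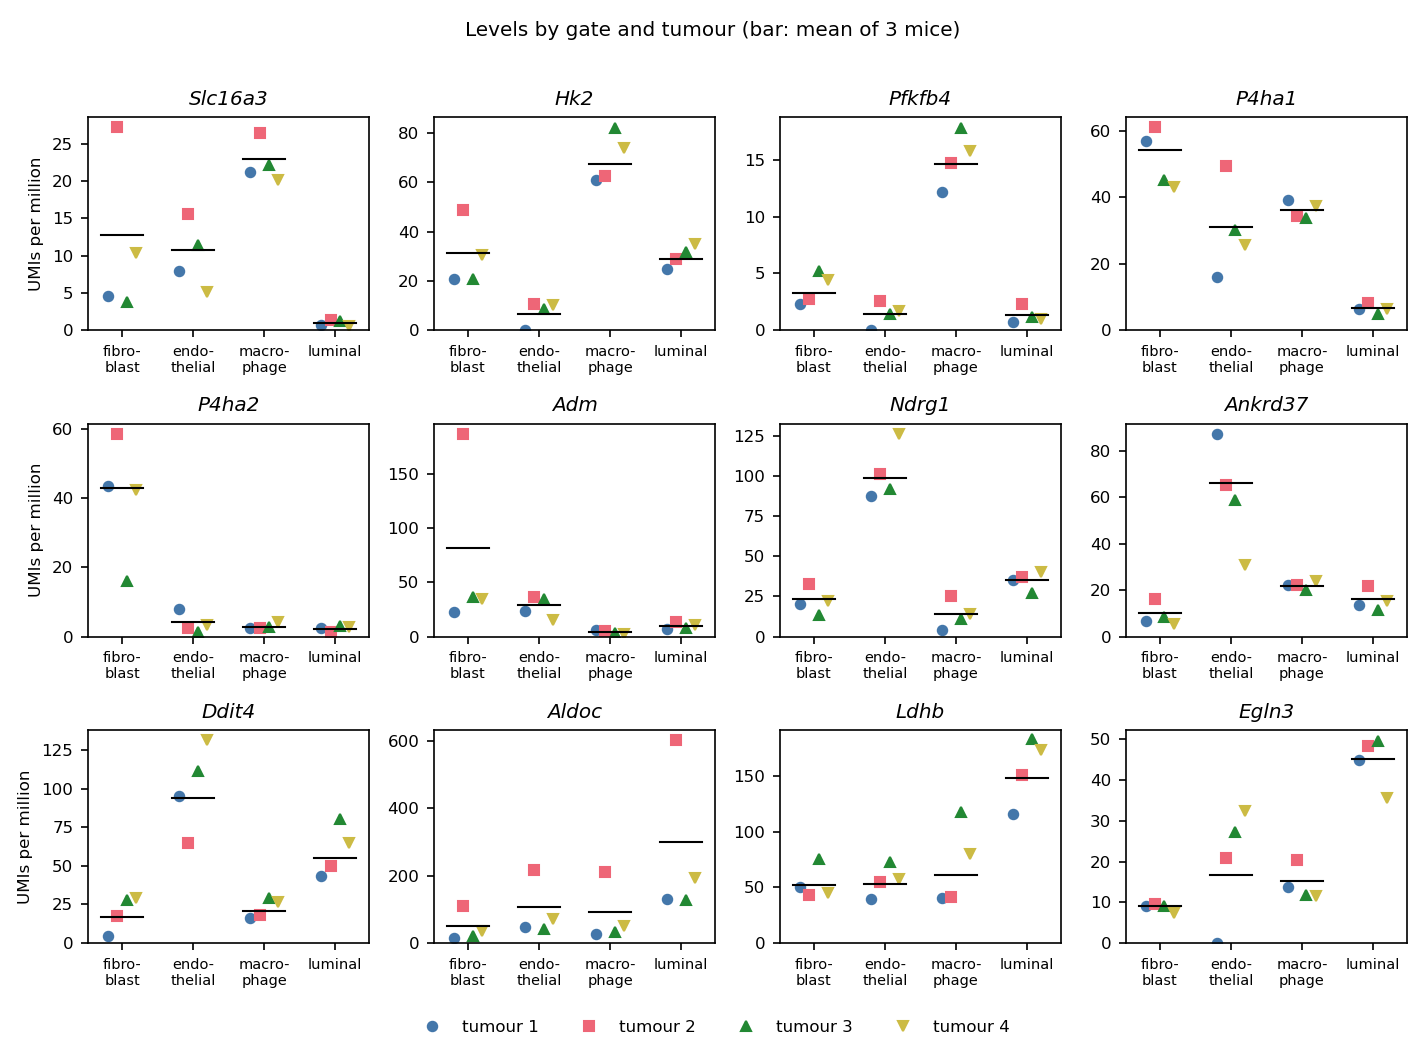
CPM of 12 members (y axis, from 0) in the fibroblast, endothelial, macrophage and luminal gates, 1 point per tumour and a bar at the mean of 3 mice. P4ha2 stands out in the fibroblast gate, Ndrg1 and Ankrd37 in the endothelial gate, and Hk2, Pfkfb4 and Slc16a3 in the macrophage gate, while Aldoc, Ldhb and Egln3 are highest in the luminal gate.

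**Figure D3:**
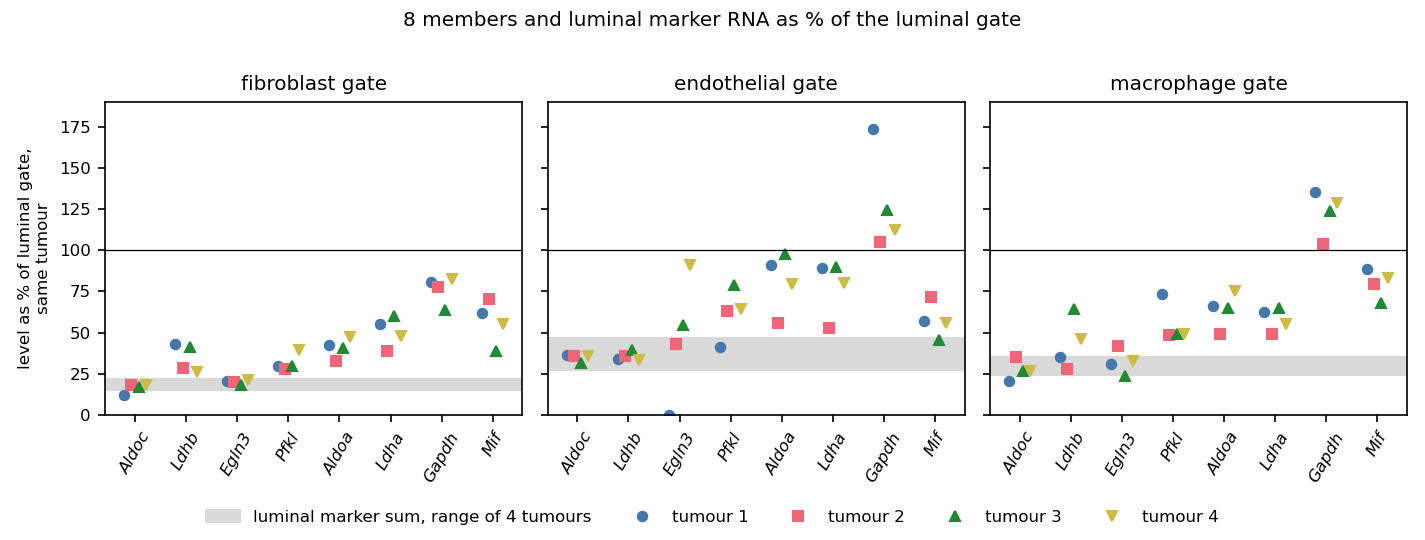
Level of 8 members in each non-luminal gate as a percentage of the luminal level of the same tumour (y axis), 1 point per tumour, with the range of the summed luminal markers in grey. Aldoc lies in or beside the grey band in all 3 gates. Gapdh reaches 104 to 136% in the macrophage gate and 105 to 174% in the endothelial gate.

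The 3 comparisons with luminal cells share the luminal samples, so the non-luminal gates were also compared with each other. Macrophages carried more glycolytic RNA than fibroblasts: of 33 members 22 were higher and 3 lower in the macrophage gate, where 43.5% of all genes were called, 22.3% higher and 21.2% lower. Of the 19 glycolytic genes 17 were higher, 1 (Pfkp, -0.66, but not called without mouse 1 at -0.43 or mouse 2 at -0.57) was lower and 1 (Hk1, 0.02) did not pass, with a median of 0.89 against 0.06 over all genes. Hk2 averaged 67.5 ± 9.79 CPM in the macrophage gate and 31.4 ± 15.4 in the fibroblast gate (1.48 ± 0.23, adjusted p = 8.9e-06). Gapdh averaged 835 ± 112 CPM in the macrophage gate and 534 ± 131 in the fibroblast gate (0.89 ± 0.11, adjusted p = 5.16e-08). P4ha2, at 2.80 ± 0.599 in macrophages against 42.7 ± 16.1 in fibroblasts (-3.46 ± 0.44), and Adm, at 4.56 ± 1.35 in macrophages against 81.6 ± 91.0 in fibroblasts (-3.79 ± 0.60, or -2.87 without mouse 2), were the 2 other targets called lower. P4ha1 did not pass between these gates, at 36.3 ± 2.47 in macrophages against 54.2 ± 8.81 in fibroblasts (-0.29 ± 0.20). The luminal marker background was higher in the macrophage gate than in the fibroblast gate, and without keratin-holding cells Ldha (0.40) and Ldhb (0.38) lost their calls. Without mouse 3, 14 members were called higher, and the lost calls were Slc16a3 (0.75), Slc2a1 (0.67), Pgk1 (0.50), Pkm (0.37), Ldhb (0.03), Bnip3 (0.65), Ankrd37 (1.03) and Egln3 (1.09). Without mouse 1, Bnip3 (0.92) lost its call.

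Endothelial cells exceeded fibroblasts for 12 members and fell below them for 3, where 26.8% of all genes were called, 12.5% higher and 14.3% lower. Ankrd37 averaged 66.1 ± 20.7 CPM in the endothelial gate and 10.1 ± 5.36 in the fibroblast gate (2.43 ± 0.30, adjusted p = 2.6e-07). Ndrg1 averaged 98.8 ± 10.3 CPM in the endothelial gate and 23.3 ± 8.28 in the fibroblast gate (2.11 ± 0.35, adjusted p = 0.000533), and Ddit4 93.7 ± 27.8 in endothelial cells and 16.8 ± 11.8 in fibroblasts (2.05 ± 0.22, adjusted p = 2.78e-08). The members called lower were P4ha2 (-3.95), Hk2 (-1.93) and P4ha1 (-0.81, but not called without mouse 1 at -0.67 or mouse 3 at -0.84). Without mouse 3, 7 members were called higher, and Ndrg1 (1.52), Pfkl (0.83), Eno1 (0.37), Ldha (0.28) and Egln3 (0.44) were no longer among them. Without mouse 1, Eno1 (0.59) lost its call. Without the keratin-holding cells Aldoc, higher at 0.87, was at -0.0075, and Aldoa (0.25), Ldha (0.02), Eno1 (0.59) and P4ha1 (-0.51) were no longer called.

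Macrophages exceeded endothelial cells for 11 members and fell below them for 4, where 29.2% of all genes were called, 15.6% higher and 13.6% lower. Hk2 averaged 67.5 ± 9.79 CPM in the macrophage gate and 6.58 ± 5.73 in the endothelial gate (3.41 ± 0.34, adjusted p = 2.72e-08), and the values of each gate did not overlap. Bnip3 averaged 32.8 ± 6.10 CPM in the macrophage gate and 5.72 ± 5.01 in the endothelial gate (2.26 ± 0.43, adjusted p = 0.000362), and Pfkfb4 14.7 ± 2.41 in macrophages and 1.39 ± 1.31 in endothelial cells (3.64 ± 0.67). Ndrg1 (-2.49), Ddit4 (-1.69), Pfkp (-1.18) and Ankrd37 (-0.95) were lower in macrophages. Without mouse 3, 7 members were called higher, and Pfkfb3 (1.38), Slc16a3 (1.47), Gapdh (0.29), Ldhb (0.18) and Pfkp (-1.08) lost their calls. Without mouse 1, Eno1 (0.47) and Ldhb (0.68) did.

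For pairs of genes that encode forms of the same enzyme or protein, the split of UMIs between the partners was compared across gates only, because UMI capture can differ between 2 genes. Hk2 took 73.6% ± 9.38 of the Hk1 and Hk2 UMIs in the macrophage gate (SD, n = 3), 48.3% ± 12.5 in the fibroblast gate and 34.3% ± 2.61 in the luminal gate. The macrophage shares of 63.8 to 82.4% lay above all luminal shares of 31.3 to 36.8%. P4ha2 took 43.1% ± 5.78 of the P4ha1 and P4ha2 UMIs in the fibroblast gate, 7.18% ± 1.62 in the macrophage gate and 24.8% ± 10.5 in the luminal gate. The order of the fibroblast and luminal gates turned in tumour 3, at 26.4% in the fibroblast gate against 39.2% in the luminal gate. In the endothelial gate the share was 33.3% in tumour 1, which is 1 of 3 UMIs, and 5.0, 4.55 and 11.8% in tumours 2 to 4. Egln3 took 35.9% ± 8.24 of the Egln1 and Egln3 UMIs in the fibroblast gate, 64.0% ± 9.01 in the macrophage gate and 86.1% ± 1.69 in the luminal gate. In the endothelial gate the share of Egln3 was 61.5, 73.1 and 59.4% in tumours 2 to 4 and 0% in tumour 1, there with an exact Clopper-Pearson 95% interval of 0 to 60.2%, which covers counting error only. Pfkp took 39.7% ± 8.31 of the Pfkl and Pfkp UMIs in the fibroblast gate and 13.7% ± 6.13 in the macrophage gate, against 16.6% ± 2.39 in the luminal gate. Ldhb took 9.40% ± 3.73 of the lactate dehydrogenase UMIs in the fibroblast gate, 6.23% ± 1.77 in the endothelial gate and 9.48% ± 6.28 in the macrophage gate, against 12.4% ± 5.04 in the luminal gate.

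**Figure D4:**
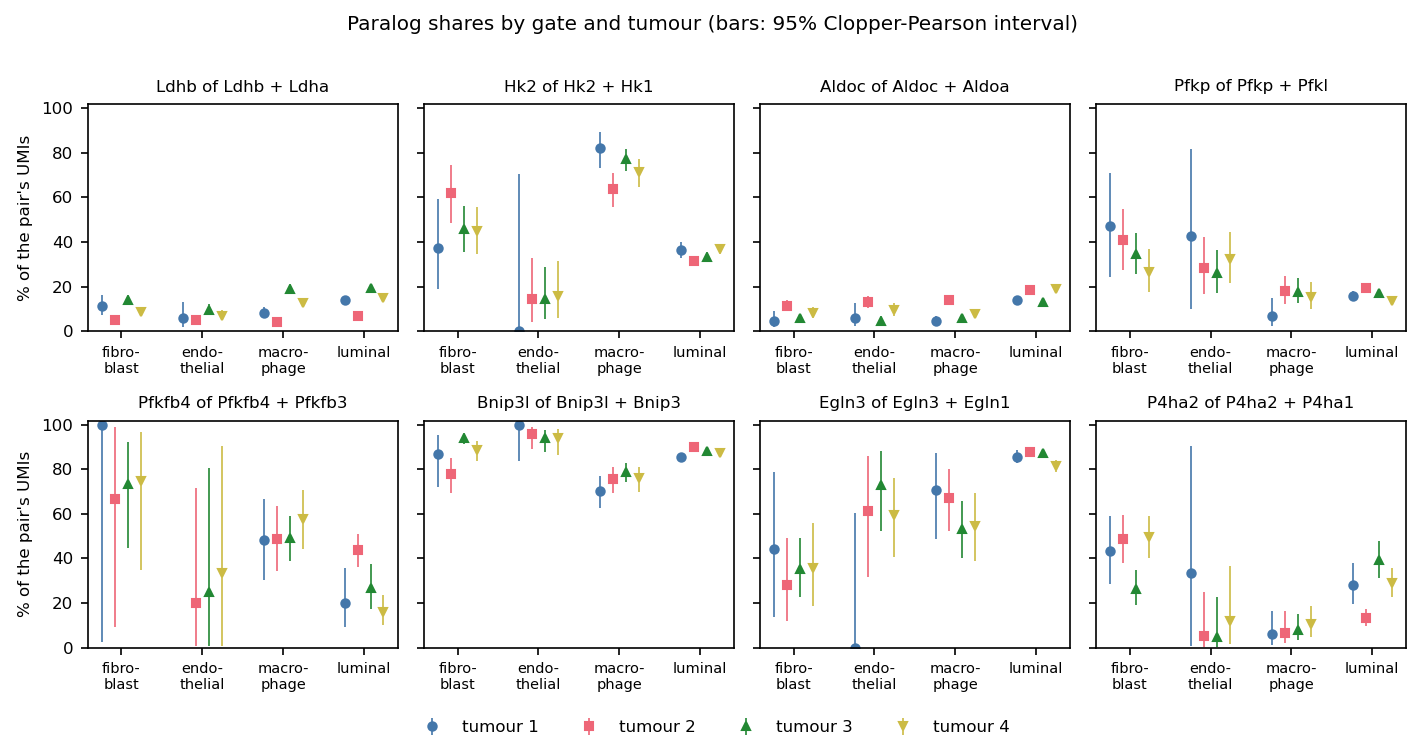
Share of the UMIs of 8 gene pairs that belonged to the named partner (y axis, 0 to 100%), by gate and tumour, with exact 95% Clopper-Pearson intervals for counting error. Hk2 takes 63.8 to 82.4% of its pair in macrophages and Egln3 81.6 to 87.9% of its pair in luminal cells.

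The tumours were not alike within a gate. Tumour 2 stood above the others for Aldoa, Aldoc and Ldha in every gate. In its fibroblast, endothelial and macrophage gates Aldoc was at 18.1, 36.0 and 34.9% of the luminal level. The luminal markers were at 20.0, 36.8 and 35.0%, so Aldoc is read as background there and not as expression. In the luminal gate Aldoa had 2632 CPM in tumour 2 and 821, 855 and 841 in tumours 1, 3 and 4, Aldoc had 601 against 131, 127 and 194, and Ldha had 2067 against 730, 771 and 998. In the macrophage gate the same genes had 1289, 210 and 1014 CPM in tumour 2, against at most 635, 51.4 and 551 in the other tumours. As a percentage of the luminal level, macrophage-gate Aldoa was at 66.4, 49.0, 64.7 and 75.5% in tumours 1 to 4. Ldha was at 62.7, 49.0, 64.8 and 55.2%. How much of the Aldoa and Ldha RNA outside the luminal gate of tumour 2 was luminal background was not tested. Eno1, the enolase, was lowest in tumour 2 in the luminal gate, with 228 against 481, 384 and 301. Tumour 2 was also the deepest library and the only one from mouse 2, so mouse and library cannot be told apart. Tumours 3 (thoracic) and 4 (inguinal, as tumour 2) of mouse 3 differed less: Aldoa had 855 and 841, and Ldha 771 and 998. The mouse block takes up such shifts. Without it 11 in place of 20 members were called lower in fibroblasts than in luminal cells, a count not set against all genes. Aldoa, Aldoc and Ldha then lost their calls against luminal cells in all 3 gates, with Aldoc at -2.63 in fibroblasts, -1.71 in endothelial cells and -1.53 in macrophages. Pfkl lost its call in endothelial cells (-0.78) and macrophages (-0.71), Gapdh in fibroblasts (-0.44) and macrophages (0.43), and Pkm in fibroblasts (-0.46) and endothelial cells (0.28).

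Within the luminal gate, the glycolytic genes were followed along the other hypoxia targets. Luminal cells with 3 or more UMIs over Ankrd37, Egln3, Car9, Ndrg1, Bnip3, Hilpda, Adm, P4ha1 and P4ha2 were compared with luminal cells that had 0 UMIs of these 9 genes, and the other 24 members were tested. The marked cells numbered 113, 636, 200 and 263 in tumours 1 to 4, which were 3.06, 7.96, 4.93 and 4.86% of luminal cells, and the unmarked ones 2409, 4214, 2296 and 3108. The threshold favours deep cells: median UMIs were 4500 to 6449.5 in marked cells and 2403 to 3264 in unmarked cells. Of the 24 members 12 were higher and 2 lower in marked cells, where 6.92% of 12480 genes were called, 3.4% higher and 3.53% lower. The median was 0.36 over these members and 0.00 over all genes.

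Pgk1, the phosphoglycerate kinase whose promoter is printed above, had 139, 235, 247 and 173 CPM in marked cells, against 81.9, 143, 107 and 111 in unmarked cells (0.77 ± 0.07, adjusted p = 3.32e-11). Slc2a1 had 20.3, 33.4, 49.9 and 34.0 CPM in marked cells against 11.6, 18.1, 16.9 and 21.1 in unmarked cells (0.94 ± 0.13, adjusted p = 7.91e-07). Slc16a3 had 3.70, 7.56, 3.78 and 0.607 CPM in marked cells against 0.305, 0.393, 0.920 and 0.474 in unmarked cells (3.10 ± 0.45, adjusted p = 8.19e-06). Pgk1 and Slc2a1 were higher in marked cells within every tumour. The Slc16a3 values were too, but those of marked cells in tumours 1 and 4 rest on fewer than 3 UMIs, and the gap was narrow in tumour 4. Gapdh had 671, 1078, 1123 and 869 CPM in marked cells against 494, 817, 644 and 676 in unmarked cells (0.43 ± 0.05, adjusted p = 7.33e-08). Pfkfb3 (1.86), Pdk1, which blocks pyruvate entry into mitochondria (0.83), Hk2 (0.61), Pgam1 (0.45), Ddit4 (0.39), Tpi1 (0.34), Pkm (0.33) and Mif (0.33) were higher as well.

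The abundant Aldoa and Ldha did not pass in marked cells. Aldoa had 789, 2268, 1320 and 905 CPM in marked cells against 827, 2815, 833 and 852 in unmarked cells (-0.04 ± 0.19, adjusted p = 0.941), lower in tumours 1 and 2 and higher in tumours 3 and 4. Ldha had 701, 1935, 986 and 1081 CPM in marked cells against 753, 2150, 752 and 993 in unmarked cells (-0.04 ± 0.06, adjusted p = 0.767). Aldoc (-0.33 ± 0.07) and Ldhb (-0.39 ± 0.07) were lower. Thinning changed these results: with every cell thinned to 1500 UMIs before marking, and marked cells taken at 2 or more UMIs, Aldoa was called higher (0.46 ± 0.07), Aldoc (-0.06), Ldhb (-0.32), Hk2 (0.42) and Pdk1 (0.92) were no longer called, Pfkfb3 did not pass the count filter, and 13 members were higher and 0 lower (edgeR, 1 lower at an unadjusted p under 0.05). In the thinned cells Pgk1 had 195, 369, 382 and 279 CPM at 2 or more marking UMIs, 70.9, 156, 120 and 135 at 1 and 85.8, 152, 117 and 111 at 0. In every tumour the value at 2 or more exceeded both others.

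The count of members called in marked cells depended on the mice. Without mouse 3, 4 were higher and 0 lower, without mouse 2, 8 and 0, and without mouse 1, 15 and 2 (edgeR, with 4, 2 and 2 lower at an unadjusted p under 0.05). The share of all genes called in these fits is not given here, so the changes in count are not read as particular to the members. Without mouse 3 the calls that remained were Slc16a3 (at 4.06), Pgk1, Gapdh and Mif, and the lost ones included Slc2a1 (0.84) and Pfkfb3 (1.60). Without mouse 2 the lost ones were Hk2 (0.46), Aldoc (-0.26), Tpi1 (0.35), Ldhb (-0.33) and Ddit4 (0.30), and Slc16a3 did not pass the count filter and was not tested. Without the mouse block none of the 14 calls was kept (edgeR), 8 members being higher at an unadjusted p under 0.05. Of 8 genes that tissue dissociation can raise, Hspa1a, Hspa1b, Atf3 and Dusp1 were higher in marked cells in all 4 tumours, and Fos, Jun, Junb and Egr1 were not. Together the 8 had 1412, 3497, 2326 and 3118 CPM in marked cells against 1698, 2848, 2229 and 2492 in unmarked cells, higher in 3 of 4 tumours. The 7 macrophage markers summed to 176, 48.0, 78.6 and 48.0 CPM in marked cells against 72.5, 51.8, 94.6 and 75.4 in unmarked cells, higher in tumour 1 alone. The 4 cycling genes Mki67, Top2a, Birc5 and Cdk1 summed to 172, 156, 274 and 139 CPM in marked cells. In unmarked cells they had 110, 196, 182 and 126, so the sum was higher in marked cells in 3 of 4 tumours. Mki67 alone had 20.3, 13.8, 32.5 and 14.6 CPM in marked cells against 10.2, 19.9, 16.9 and 11.8 in unmarked cells. Mitochondrial UMIs were 0.742 to 0.930% in marked cells and 0.777 to 1.04% in unmarked cells. The part of these measures in the result was not tested.

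**Figure D5:**
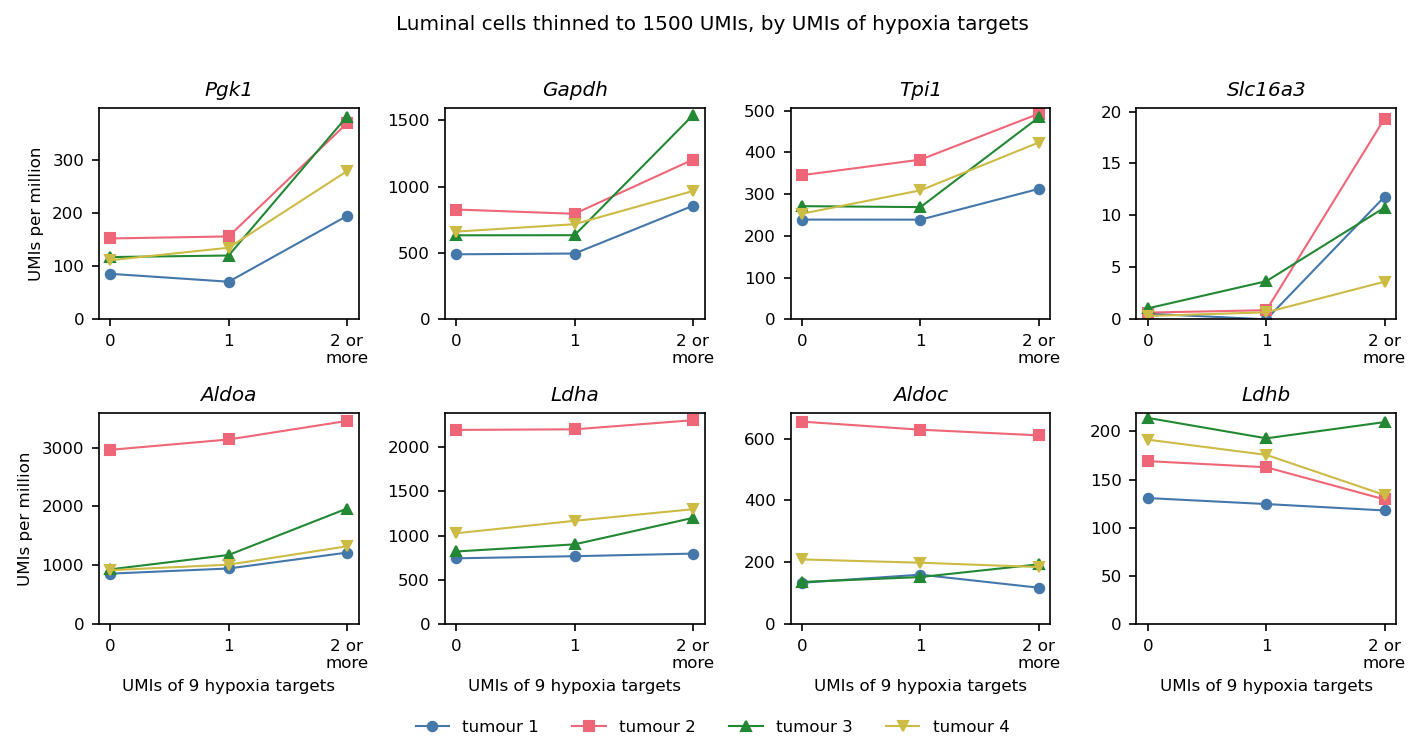
CPM (y axis, from 0) of 8 glycolytic members in luminal cells thinned to 1500 UMIs, by the UMIs of the 9 marking genes left after thinning (x axis), 1 line per tumour. Pgk1, Gapdh, Tpi1, Slc16a3, Aldoa and Ldha are highest at 2 or more marking UMIs in all 4 tumours, Aldoc in tumour 3 alone and Ldhb in none. There the Slc16a3 values of tumours 1, 3 and 4 rest on fewer than 3 UMIs.

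A list of 42 further genes of the same pathways, of which 30 passed the filter, was read alongside. In the fibroblast gate 13 were higher and 4 lower than in the luminal gate, in the endothelial gate 7 and 7, and in the macrophage gate 6 and 8. These are 56.7, 46.7 and 46.7% of the 30, against 50.0, 35.0 and 45.6% of all genes, so the fibroblast and macrophage shares were near the background. The collagen and matrix genes led in fibroblasts. Lox, an enzyme that crosslinks collagen, had 174, 250, 117 and 155 CPM in the fibroblast gate against 0.447, 0.0863, 0.676 and 0.328 in the luminal gate (9.01 ± 0.59, adjusted p = 0.000134, and 8.08 without mouse 2 or 10.09 without mouse 3). Its relative Loxl2 averaged 117 ± 24.6 CPM in the fibroblast gate against 0.934 ± 0.301 in the luminal gate (6.84 ± 0.26). Both are also known as fibroblast genes outside hypoxia. Cited2, a negative regulator of hypoxia-inducible factors (-2.05), Ero1l, an oxidase of protein folding (-0.91), and Pdhb, a subunit of pyruvate dehydrogenase (-0.82), were lower.

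In the endothelial gate Epas1, the hypoxia-inducible factor 2 alpha subunit known from vessels, had 71.5, 112, 106 and 104 CPM, against 6.16, 9.70, 5.18 and 7.63 in the luminal gate (3.51 ± 0.21, adjusted p = 4.28e-14). Plod1, a collagen lysyl hydroxylase, averaged 159 ± 25.3 CPM in the endothelial gate against 17.6 ± 1.17 in the luminal gate (2.84 ± 0.21). Cited2 (-1.54, or -2.57 without mouse 3), Pdk2, a pyruvate dehydrogenase kinase (-1.48, not called without mouse 3 at -1.44), and Pdha1, the other pyruvate dehydrogenase subunit (-1.11), were lower. In the macrophage gate Plod1 averaged 38.4 ± 10.9 CPM against 17.6 ± 1.17 in the luminal gate (1.32 ± 0.19), and Pdk2 (-1.06), Cited2 (-1.06) and Pdha1 (-0.85) were lower. Hif1a, the other oxygen-controlled subunit, is named here after its values were seen: it averaged 54.5 ± 16.5 CPM in the fibroblast gate, 106 ± 45.6 in the endothelial gate and 21.9 ± 2.38 in the macrophage gate, against 20.5 ± 0.934 in the luminal gate, and was called higher in the fibroblast and endothelial gates (1.36 and 1.93). In marked luminal cells 7 of the 28 list genes tested were higher and 0 lower (edgeR, Bpgm alone lower at an unadjusted p under 0.05): Ak4 (2.29), Vegfa, the vessel growth factor (1.47), Ero1l (0.98), Stc2 (0.71), Higd1a (0.57), Fam162a (0.51) and Cited2 (0.33), of which Ak4, Vegfa, Stc2 and Cited2 lost the call without mouse 2.

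Counts of some members can include reads of near-identical copies. The processed pseudogene entry Mif-ps held 10.1% as many UMIs as Mif, and Eno1b 3.87% as many as Eno1, so the levels of Mif and Eno1 are uncertain to about that extent. Every other copy held under 1% of its member. Some members, among them Hk1, Hk2, Aldoa, Ankrd37 and Ndrg1, overlap annotated genes on the other strand, and strand use in counting was not given in the sources used here, so reads of such partners cannot be told apart. Slc16a3, P4ha2, Pfkfb3, Pfkfb4, Egln1, Egln3 and Bnip3 averaged under 50 CPM, the level required for a full description, in both gates of each comparison with luminal cells. The same holds for Hk2 in the endothelial comparison and P4ha1 in the endothelial and macrophage ones. These genes, and those described between the non-luminal gates and in marked cells, were chosen after their values were seen.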

How the data were processed

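The deposited count tables hold unnormalized UMI counts for each gene in each barcode, made by the authors with Cell Ranger 2.2.0 on the mm10 genome (GRCm38), with FastQC listed for read quality, per the submitters' processing notes. The labels state no doublet removal, strand setting or normalization, and none was assumed. No doublet caller was used here, and a variant left out the 8% of cells with the most UMIs instead.

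Counts were summed per gate and mouse, tumours 3 and 4 of mouse 3 together. All 4 gates were fitted in 1 model with edgeR 4.0.16 in R 4.3.3: TMM scaling, edgeR's default filter on low counts (10835 genes kept), robust quasi-likelihood F test, Benjamini-Hochberg adjustment over all genes kept. The mouse was a block because gates of 1 number come from the same animal. Marked and unmarked luminal cells had a fit of their own (12480 genes). CPM and percentages of the luminal level are not scaled by TMM, unlike the fold changes. The TMM factors were 1.11 to 1.23 in the endothelial gate and 0.84 to 0.90 in the macrophage gate. The p-values measure the spread, over 3 mice, of the differences within a mouse. Shifts of a whole mouse are taken up by the block. An SE was derived from the F statistic, and for genes that vary less than Poisson noise edgeR's p need not match it. DESeq2 1.42.0 was an alternative test. Library totals and median UMIs per cell give the depth. Exact Clopper-Pearson intervals and the floor of 3 counts cover counting error only. Alternatives are given in the closing section. The 1 that leaves out fibroblast-gate and endothelial-gate cells with UMIs of macrophage, neutrophil or mural markers was chosen after seeing the data.

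The members, gene lists, gates and marking genes were chosen with earlier results of these data known. Members described in full against luminal cells were those called with 1 direction in all 3 mice and a mean of at least 50 CPM in the higher gate, at most 5 per direction. For the further pathway genes the limits were 20 CPM and 3 per direction. Promoter sequences are from RefSeq (GRCm38.p6) and gene spans from GENCODE vM21.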

Additional observations from a re-analysis of the deposited data

Results flagged for a closer look

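The 4 tumour values of each member that averaged at least 50 CPM in a gate, or in marked or unmarked luminal cells, were screened for a tumour far from the other 3 by Dixon's criterion. Of 95 groups of values 16 were picked out, 11 of them in tumour 2. Chance alone picks about 1 in 20 groups only if the 4 values are independent. Tumours 3 and 4 share a mouse, and unmarked cells are part of the luminal gate. The 16 can therefore not be set against that share.

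Aldoa in tumour 2 stood apart in the fibroblast gate (865 CPM), the macrophage gate (1289), the luminal gate (2632) and in unmarked luminal cells (2815). Aldoc in tumour 2 stood apart in the endothelial gate (216), the macrophage gate (209.6), the luminal gate (601) and in unmarked luminal cells (648). The endothelial and macrophage values of Aldoc in tumour 2 are read as luminal background, as above. Tumour 2 was also high for Ldha in the macrophage gate (1014), Adm in the fibroblast gate (186) and Gpi1 in the luminal gate (184). The part of luminal background in the fibroblast and macrophage values of Aldoa and the macrophage value of Ldha was not tested.

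In tumour 1, Pkm was low in the luminal gate (281 CPM) and in unmarked luminal cells (274), and Hk1 was low in unmarked luminal cells (39.5). In tumour 3, Mif was high in the luminal gate (1521) and in marked luminal cells (1978).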

How the results depend on the processing

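Of 1785 results for members under the alternatives, 1604 kept their direction and call, 180 lost the call and 1 changed sign: Aldoc in endothelial against fibroblast cells, at -0.0075 with non-luminal cells of 3 or more keratin UMIs left out. Without the replicate block for the mouse, members called lower than in luminal cells numbered 11 in fibroblasts, 5 in endothelial cells and 5 in macrophages, and members called higher 13 in macrophages against fibroblasts, 7 in endothelial cells against fibroblasts and 7 in macrophages against endothelial cells. In marked cells 0 were then higher and 0 lower (edgeR, with 8 and 0 at an unadjusted p under 0.05). With the mouse block kept, DESeq2 called 6 higher and 1 lower in marked cells, against 12 and 2 with edgeR. After thinning 0 were lower (edgeR, 1 at an unadjusted p under 0.05). Leaving out 1 mouse at a time gave 3 to 6 members higher in endothelial than luminal cells, 14 to 22 in macrophages against fibroblasts, 7 to 13 in endothelial cells against fibroblasts, 7 to 13 in macrophages against endothelial cells, and 4 to 15 higher and 0 to 2 lower in marked cells (edgeR, 2 to 4 lower at an unadjusted p under 0.05). Calls against luminal cells that held under every alternative numbered 5 of 6 higher and 10 of 20 lower in fibroblasts, 3 of 6 and 5 of 10 in endothelial cells, and 7 of 10 and 5 of 10 in macrophages. The share of all genes called under each alternative is not set beside these counts, here or above. The changes in count are therefore not read as particular to the members, and their cause was not tested. Depth limits the endothelial gate most, where 3 counts amount to 23.8 CPM in tumour 1 and 4.30 to 7.80 in the others. Scaling by size factors moved the median of all genes in fibroblasts against luminal cells to 0.03, against -0.08 with TMM.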
